A study of Mus musculus with 8 samples.

Results

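The transcripts of major histocompatibility complex (MHC) class II and of its activator were followed in Gr-1+ cells of diabetic and nondiabetic mice. The members were 9 gene symbols, H2-Aa, H2-Ab1, H2-Eb1, H2-Ea-ps, H2-DMa, H2-DMb1, H2-DMb2, Cd74 and Ciita. Every row of the deposited table was taken whose gene name, split at commas, held one of these symbols and whose locus spanned at least 200 bp. That gave 14 of 39330 rows, under 11 distinct gene names of 15578 in all. Of the 14 rows, 12 reached 1 FPKM (fragments mapped to a transcript, scaled to its length and to the depth of the library) in at least 2 of the 8 libraries, and 10 of the 11 names were tested. The name left untested was H2-DMb1 alone, a 529 bp row with 0 to 0.434 FPKM. The H2 region of chromosome 17 holds 7 of the symbols, and Cd74 and Ciita lie outside it on chromosomes 18 and 16.

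The study had 4 groups, each sequenced as 2 libraries made from pools of 5 mice. They were wound cells of diabetic mice, Homozygous (Lepr -/-), wound cells of nondiabetic mice, Heterozygous (Lepr +/-), and bone marrow cells of the same 2 genotypes. Lepr encodes the leptin receptor, so the nondiabetic mice also carried a mutant allele, and no wild-type mice were in these groups. All libraries were labelled as strain C57BL/6, from sex-matched males and females 8 to 16 weeks old that were housed individually. Each mouse carried 2 excisional wounds of 8 mm on its back, the wounds were taken on day 3 with a 2 mm rim of skin, and Gr-1+ cells were drawn from dissociated tissue with magnetic beads. Gr-1 is a surface antigen of the Ly6G and Ly6C proteins, carried by neutrophils and by inflammatory monocytes, and bead selection leaves some cells of other types behind. Because the libraries are bulk samples, fewer cells of a type and less RNA per cell cannot be told apart. P-values measured the spread between pools, not between mice.

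MHC class II molecules present peptides from engulfed material to CD4+ T cells and are made mainly by dendritic cells, B cells and activated macrophages. An alpha and a beta chain (I-A from H2-Aa and H2-Ab1, I-E from H2-Ea and H2-Eb1) pair in the endoplasmic reticulum with the invariant chain Cd74, which blocks the groove. H2-DM, the product of H2-DMa with H2-DMb1 or H2-DMb2, later removes the last piece of Cd74 and lets a peptide bind. Ciita, the class II transactivator, binds no DNA itself and is recruited by the RFX, CREB and NF-Y factors seated on the X and Y boxes of class II promoters.

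The proximal promoters are shown because those boxes are what Ciita acts through. RefSeq promoters (GRCm38.p6, 250 bases before to 50 after a start, another build than the mm9 of the expression table) were found for 5 of the 9 symbols, H2-Aa, H2-Eb1, H2-DMa, H2-DMb1 and H2-DMb2. Each line below is a 120-base window from 130 to 11 bases before the start. Capitals mark AACNGATGATGCT, the letters of an X box, and GATTGG, the letters of a Y box, searched on both strands, so that CCAATC in capitals is GATTGG on the other strand. The windows are H2-Eb1 at chr17:34305737-34305856 (plus strand), H2-DMb1 at chr17:34153061-34153180 (plus), H2-DMb2 at chr17:34145119-34145238 (plus) and H2-Aa at chr17:34287834-34287953 (minus).
H2-Eb1: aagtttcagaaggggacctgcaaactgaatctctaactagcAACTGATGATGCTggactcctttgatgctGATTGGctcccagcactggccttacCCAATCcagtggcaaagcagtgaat
H2-DMb1: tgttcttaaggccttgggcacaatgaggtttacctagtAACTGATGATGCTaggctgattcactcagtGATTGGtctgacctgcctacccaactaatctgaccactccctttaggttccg
H2-DMb2: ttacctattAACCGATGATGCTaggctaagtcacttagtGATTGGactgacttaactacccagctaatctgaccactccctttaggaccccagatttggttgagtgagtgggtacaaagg
H2-Aa: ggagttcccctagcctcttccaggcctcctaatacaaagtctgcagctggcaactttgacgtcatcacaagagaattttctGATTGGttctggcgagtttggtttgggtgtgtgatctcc

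The H2-Eb1, H2-DMb1 and H2-DMb2 promoters held both sets of letters in the same order. The X box letters began 29 bases before the Y box letters in H2-Eb1 and 30 bases before them in H2-DMb1 and H2-DMb2. The H2-Aa window held the Y box letters only. H2-DMa had a pair of RefSeq promoters, and neither held the X box letters. Of 32851 RefSeq promoters, 5 (0.0152%) held the X box letters, 5292 (16.1%) the Y box letters, and 3 (0.00913%) both, and these 3 were H2-Eb1, H2-DMb1 and H2-DMb2. The X box letters searched were the longest stretch shared by these 3 promoters with a single differing base, written N, so the shares describe the search and test nothing. An X box with other letters would be missed, so the search does not show that H2-Aa or H2-DMa lacks one.

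The libraries carried between 1 and 1.80 times the depth of the shallowest, as judged from the FPKM that a single fragment was worth, 0.0165 to 0.0298 for a 1 kb locus. Lepr stood at 1.37 and 1.22 FPKM in diabetic wound, against 4.95 and 4.66 in nondiabetic wound, and at 0.0390 and 0.186 in diabetic marrow, against 0.477 and 0.689 in nondiabetic marrow. It was lower in the diabetic libraries of each tissue, as labelled. Ly6g, the neutrophil gene behind the sort, was at 12.2 and 12.9 FPKM in diabetic wound and 17.2 and 19.2 in nondiabetic wound, but between 566 and 899.5 in the marrow libraries.

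Several class II rows do not map cleanly to a gene. The row named H2-Aa, H2-Eb1 and RP23-123G8.12 covers chr17:34441617-34453643 (mm9), the same interval as the H2-Eb1 row, and does not reach the annotated H2-Aa gene at chr17:34406276-34424772. In the table the chromosome 17 rows run in 3 passes, with 92.5% of named loci on plus-strand genes in the first, 7.1% in the second and 53.5% in the last. H2-Eb1 lies in the first pass and the joint row in the second, as for the opposite strands of an interval. The submitters' use of strand is not given in the sources used here, so reads of such overlapping rows cannot be told apart. The 3 rows named H2-Aa alone lie inside the annotated gene, in the last pass, and are small. H2-DMb1 and H2-DMb2 are closely related neighbours and share a joint row at chr17:34280180-34297312, so they were not separated. Both are plus-strand genes. Their joint row lies in the first pass, and the row named H2-DMb2 covers the same interval in the second, as for the opposite strand.

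Cd74 was the most abundant member in every group, and Ciita stood under 3 FPKM in each library. In diabetic wound the group means ran from Cd74 at 326 FPKM through H2-Ea-ps at 293, H2-Eb1 at 220, the joint H2-Aa/H2-Eb1 row at 175 and H2-Ab1 at 67.1, to H2-DMb1/H2-DMb2 at 26.5, H2-DMa at 14.8 and Ciita at 0.749. In nondiabetic wound the order was Cd74 at 558, H2-Eb1 at 390, the joint H2-Aa/H2-Eb1 row at 383, H2-Ab1 at 193, H2-DMb1/H2-DMb2 at 32.4, H2-Ea-ps at 25.6, H2-DMa at 15.9 and Ciita at 2.38. H2-Eb1 and the joint row overlapped in nondiabetic wound, where their libraries spanned 377 to 403 and 376 to 390 FPKM. In diabetic marrow H2-Ea-ps at 58.1 FPKM and H2-DMb1/H2-DMb2 at 48.4 followed Cd74 at 79.7, ahead of the joint row at 30.8, H2-Eb1 at 27.5, H2-Ab1 at 11.1, H2-DMa at 7.50 and Ciita at 2.58. In nondiabetic marrow H2-Eb1 at 39.8 and the joint row at 35.7 followed Cd74 at 83.7, ahead of H2-DMb1/H2-DMb2 at 18.5 and H2-Ab1 at 17.9, which overlapped, H2-DMa at 9.14, H2-Ea-ps at 1.52 and Ciita at 0.605. H2-Ea-ps was the member whose place moved furthest between the genotypes.

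**Figure D1:**
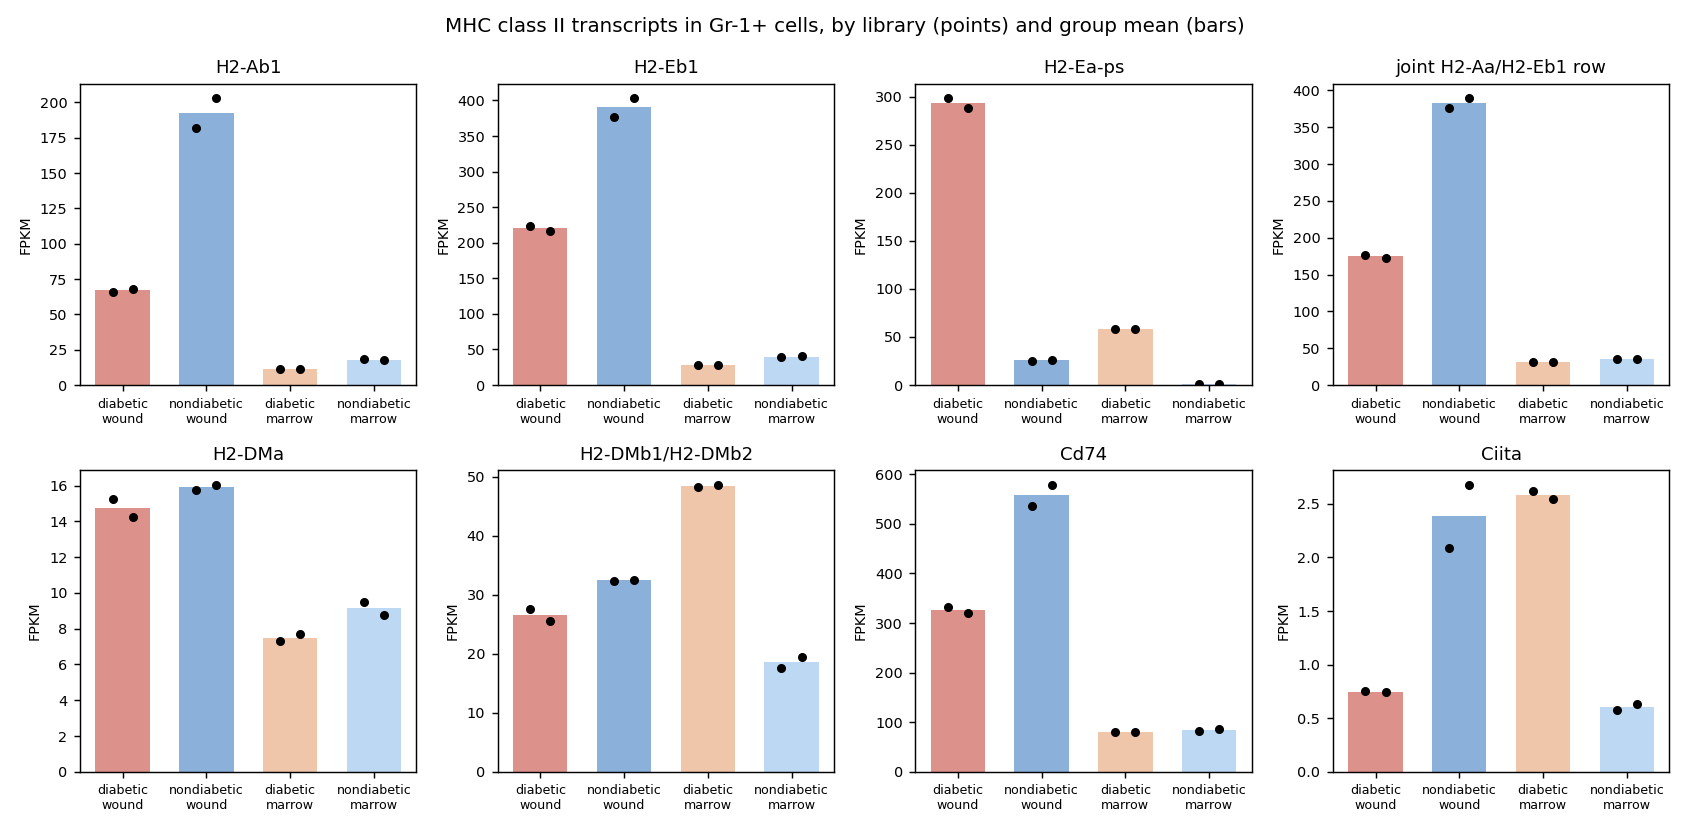
FPKM (y axis, linear, from 0, with its own scale in each panel) of 8 class II rows in the 4 groups on the x axis, where points are the 2 libraries of a group and bars their mean. H2-Ab1, H2-Eb1 and Cd74 are tallest in nondiabetic wound, H2-Ea-ps is tallest in diabetic wound at 299 and 288 FPKM, and H2-DMb1/H2-DMb2 is tallest in diabetic marrow.

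The classical beta chains were lower in diabetic cells of both tissues. H2-Ab1 is the I-A beta chain, and its row (chr17:34398517-34407759) also overlaps H2-Aa on the other strand. Strand use is not given, so reads from H2-Aa in this row cannot be told apart. H2-Ab1 had 66.2 and 68.0 FPKM in diabetic wound, against 182 and 203 in nondiabetic wound. In marrow it had 11.1 and 11.1 in diabetic cells, against 18.3 and 17.5 in nondiabetic cells. The groups did not overlap in either tissue. It fell 2.87-fold in wound and 1.61-fold in marrow, which on the log2(FPKM + 1) scale was -1.51 ± 0.06 (SE; limma, adjusted p = 3.63e-05) and -0.64 ± 0.06 (adjusted p = 6.96e-04).

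H2-Eb1, the I-E beta chain, had 224 and 217 FPKM in diabetic wound, against 377 and 403 in nondiabetic wound, and 27.5 and 27.6 in diabetic marrow, against 39.6 and 40.1 in nondiabetic marrow. Each diabetic library lay below each nondiabetic library of its tissue. The log2 differences were -0.82 ± 0.04 in wound (SE; limma, adjusted p = 8.78e-05) and -0.52 ± 0.04 in marrow (adjusted p = 5.75e-04). Within a library H2-Ab1 stood at 29.6% and 31.4% of H2-Eb1 in the diabetic wound libraries, against 48.3% and 50.3% in the nondiabetic ones.

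The alpha chain H2-Aa had no clean row. The row that carries its name with H2-Eb1 lies over H2-Eb1 and, on the minus strand, Gm20513. It does not reach the annotated H2-Aa gene, so its values are not read as a measure of H2-Aa. The joint row with H2-Eb1 had 177 and 172 FPKM in diabetic wound, against 376 and 390 in nondiabetic wound, a log2 difference of -1.13 ± 0.04 (SE; limma, adjusted p = 2.39e-05). In marrow it had 30.9 and 30.6 FPKM in diabetic cells, against 35.4 and 36.0 in nondiabetic cells, a small fall of 0.21 on the log2 scale (adjusted p = 0.00654) that missed the threshold with quantile normalization (adjusted p = 0.0845) and median-ratio scaling (0.169). The highest of the 3 rows inside H2-Aa itself, chr17:34407822-34408471, was listed at 0 in both diabetic wound libraries, against 1.79 and 1.58 FPKM in nondiabetic wound.
Summed over the 3 rows, those values amounted to about 4 and 0 fragments in diabetic wound, against 197 and 151 in nondiabetic wound. The marrow libraries held about 1 and 2 in diabetic mice and 2 and 1 in nondiabetic mice. The signal of these rows was therefore seen in nondiabetic wound and was at or near 0 elsewhere. The highest row passed the filter on low values through the nondiabetic wound libraries alone, so that group had to be high, and the row is left out of the counts of members that follow.

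A second row for H2-Ab1, over the same interval but of unknown strand and far lower, followed another order. It had 1.91 and 1.65 FPKM in diabetic wound, against 5.62 and 6.32 in nondiabetic wound, and 2.15 and 2.07 in diabetic marrow, against 0.348 and 0.411 in nondiabetic marrow. In wound it had the direction of the main H2-Ab1 row, and in marrow the opposite one. It stood for no tested name.

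H2-Ea-ps moved against the other classical chains. In mice of the b haplotype, that of C57BL/6, the I-E alpha chain gene lacks part of its promoter and is annotated as a pseudogene, and no I-E reaches the surface, whereas mice of several other H2 haplotypes make it. H2-Ea-ps (chr17:34478309-34484361) had 299 and 288 FPKM in diabetic wound, against 24.7 and 26.5 in nondiabetic wound, and 57.9 and 58.3 in diabetic marrow, against 1.46 and 1.57 in nondiabetic marrow. The diabetic libraries were far above the nondiabetic ones in both tissues. The level was 11.5-fold higher in wound (log2 difference 3.47 ± 0.05, SE; limma, adjusted p = 4.3e-06) and 38.3-fold higher in marrow (4.55 ± 0.05, adjusted p = 2.76e-06).
Among 13457 tested genes H2-Ea-ps had the 32nd highest difference in wound and the 14th highest in marrow, and it was 1 of 16 genes at 3 or more log2 units higher in both tissues. Within a library it stood at 133.4% and 132.9% of H2-Eb1 in diabetic wound, against 6.56% and 6.56% in nondiabetic wound. In marrow the shares were 210.7% and 211.2% in diabetic cells, against 3.70% and 3.91% in nondiabetic cells. The labels name a single strain for all 8 libraries, and the H2 haplotype of the mice was not tested. Its bearing on the values of the H2-Aa, H2-Ab1 and H2-Eb1 rows was not tested either.

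The peptide-loading genes went their own way. H2-DMa, the DM alpha chain, had 15.3 and 14.3 FPKM in diabetic wound, against 15.8 and 16.1 in nondiabetic wound. Its wound difference of -0.10 ± 0.05 did not pass (SE; limma, adjusted p = 0.165), and passed with both scalings (adjusted p = 0.0333 and 0.0217). In marrow it had 7.31 and 7.69 FPKM in diabetic cells, against 9.49 and 8.79 in nondiabetic cells, a fall of 0.25 (adjusted p = 0.0128) that missed the threshold with both scalings (0.107 and 0.14), without the first diabetic pool (0.069), without the first nondiabetic pool (0.0526) and with the marrow groups fitted alone (0.0617).

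The DM beta chains, as the joint row H2-DMb1/H2-DMb2, had 27.5 and 25.6 FPKM in diabetic wound, against 32.3 and 32.5 in nondiabetic wound, and 48.2 and 48.6 in diabetic marrow, against 17.5 and 19.5 in nondiabetic marrow. They were thus lower in diabetic wound and 2.61-fold higher in diabetic marrow. The log2 differences were -0.28 ± 0.06 in wound (SE; limma, adjusted p = 0.0112, and 0.0595 without the second diabetic pool) and 1.34 ± 0.06 in marrow (adjusted p = 7.16e-05).
The row named H2-DMb2 covers the same interval but lies in the second pass, as for the opposite strand, so it is not a clean measure of the DM beta chains. It had 18.4 and 12.99 FPKM in diabetic wound, against 9.43 and 11.4 in nondiabetic wound. In marrow it had 9.10 and 10.2 FPKM in diabetic cells, against 3.53 and 5.90 in nondiabetic cells. Its pools lay wide apart, and only the marrow difference of 0.93 ± 0.25 passed (SE; limma, adjusted p = 0.027, against 0.12 in wound). Without the first or the second diabetic marrow pool, or the first nondiabetic one, it did not pass (0.0795, 0.109 and 0.0936), nor with the marrow groups fitted alone (0.0731). The beta chains stood at 659% and 632.2% of H2-DMa in diabetic marrow and between 179.4% and 222.1% in the 6 other libraries.

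Outside the H2 region, Cd74 behaved like the classical chains in wound and not in marrow. Its row (chr18:60963396-61008652, which also overlaps Tcof1 on the other strand) had 332 and 319 FPKM in diabetic wound, against 536 and 579 in nondiabetic wound, a 1.71-fold fall (log2 difference -0.77 ± 0.05, SE; limma, adjusted p = 2.17e-04). In marrow it had 79.3 and 80.1 FPKM in diabetic cells, against 81.7 and 85.8 in nondiabetic cells. These values differed by -0.07 ± 0.05 on the log2 scale (adjusted p = 0.356), which missed the threshold and turned positive with quantile normalization (0.0179) and median-ratio scaling (0.0786).

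Ciita was scarce in every library and moved in opposite directions in the 2 tissues. It (chr16:10480054-10542802, a row that also overlaps Dexi on the other strand) had 0.756 and 0.741 FPKM in diabetic wound, against 2.09 and 2.68 in nondiabetic wound, and 2.62 and 2.55 in diabetic marrow, against 0.573 and 0.636 in nondiabetic marrow. It fell 3.19-fold in wound (log2 difference -0.95 ± 0.09, SE; limma, adjusted p = 5.54e-04) and rose 4.27-fold in marrow (1.16 ± 0.09, adjusted p = 4.01e-04). In marrow Ciita and the DM beta chains were therefore higher in diabetic cells, while H2-Ab1 and H2-Eb1 were lower and the Cd74 difference did not pass.

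Counted over the family in wound, 6 of 9 names (the H2-Aa row left out) were lower in diabetic cells, beside 20.7% of all 13457 genes, and 1 was higher, beside 31%. The median log2 difference of the 9 was -0.77, against 0.07 for all genes tested. With median-ratio scaling the calls over all genes were 3252 higher and 3700 lower, against 4170 and 2789 without it. In marrow 4 were lower, beside 31.7% of genes, and 4 higher, beside 13.1%, with a median of -0.07 against -0.09. The marrow count of lower members was 2 with either scaling, and the calls over all genes turned to 2772 higher and 2510 lower with median-ratio scaling, against 1767 and 4263 without it. Rows that share an interval are not independent, so these counts describe rows and not separate genes.

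**Figure D2:**
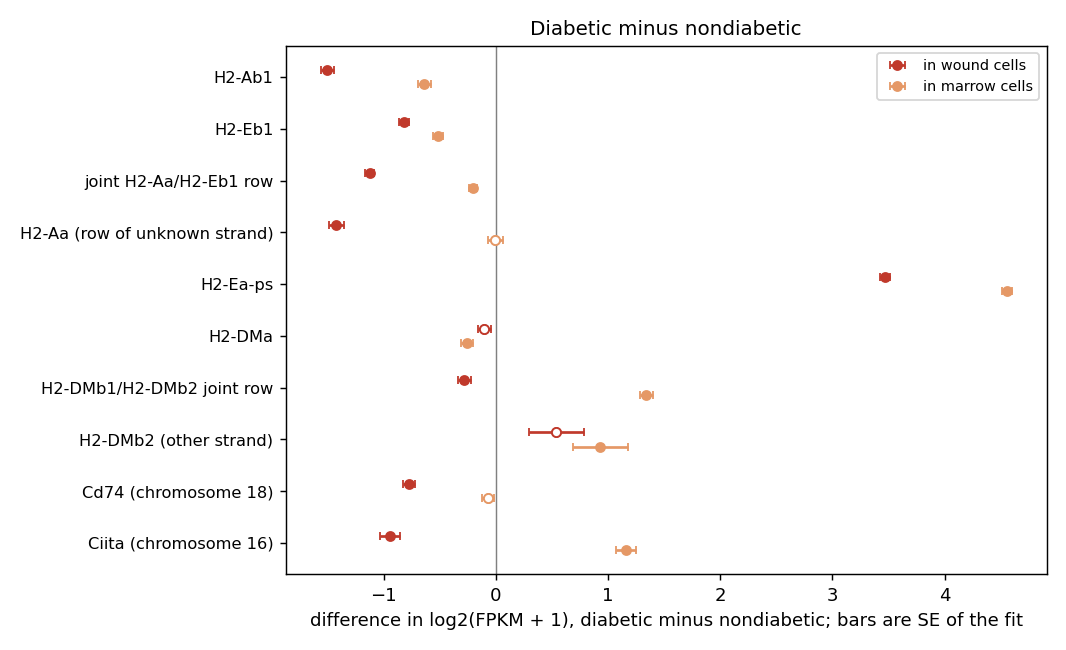
Difference in log2(FPKM + 1), diabetic minus nondiabetic (x axis), of the 10 tested class II names (y axis) in wound and in marrow cells; points are limma estimates, bars their SE, and open points did not reach an adjusted p under 0.05. H2-Ea-ps stands alone on the right at 3.47 and 4.55, and Ciita and H2-DMb1/H2-DMb2 lie on opposite sides of 0 in the 2 tissues. The H2-Aa row, admitted through nondiabetic wound alone, is drawn with no weight on its test.

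Most class II rows were higher in wound cells than in marrow cells of the same genotype. In nondiabetic mice all 9 names were higher in wound, beside 32.1% of all genes with 53.1% lower, with a median log2 difference of 2.72 against -0.38 for all genes. In diabetic mice 6 were higher, beside 37.1% of genes, and 2 were lower, beside 47.1%, with a median of 2.02 against -0.18. With median-ratio scaling the calls over all genes leaned to wound, with 5918 genes above and 5350 below marrow for diabetic mice, and 5826 above and 5293 below for nondiabetic mice. The 2 lower names were Ciita and H2-DMb1/H2-DMb2.
In diabetic mice wound exceeded marrow 8.00-fold for H2-Eb1, 6.03-fold for H2-Ab1, 5.05-fold for H2-Ea-ps, 4.09-fold for Cd74 and 1.97-fold for H2-DMa. In nondiabetic mice the same ratios were 9.80, 10.8, 16.9, 6.66 and 1.74. Each of these passed in limma (largest adjusted p = 3.26e-05, for H2-DMa in nondiabetic mice). Ciita ran -1.04 ± 0.09 in diabetic mice and 1.07 ± 0.09 in nondiabetic mice (SE; limma, adjusted p = 7.37e-05 and 5.96e-05), and the DM beta chains -0.84 ± 0.06 and 0.78 ± 0.06 (adjusted p = 3.1e-05 and 4.34e-05). H2-DMb2 in diabetic mice (0.63 ± 0.25, adjusted p = 0.0531) did not pass, but passed under 10 other settings, among them quantile normalization (0.0071), median-ratio scaling (0.0112), a pseudocount of 5 (0.036) and the groups compared fitted alone (0.0422).

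**Figure D3:**
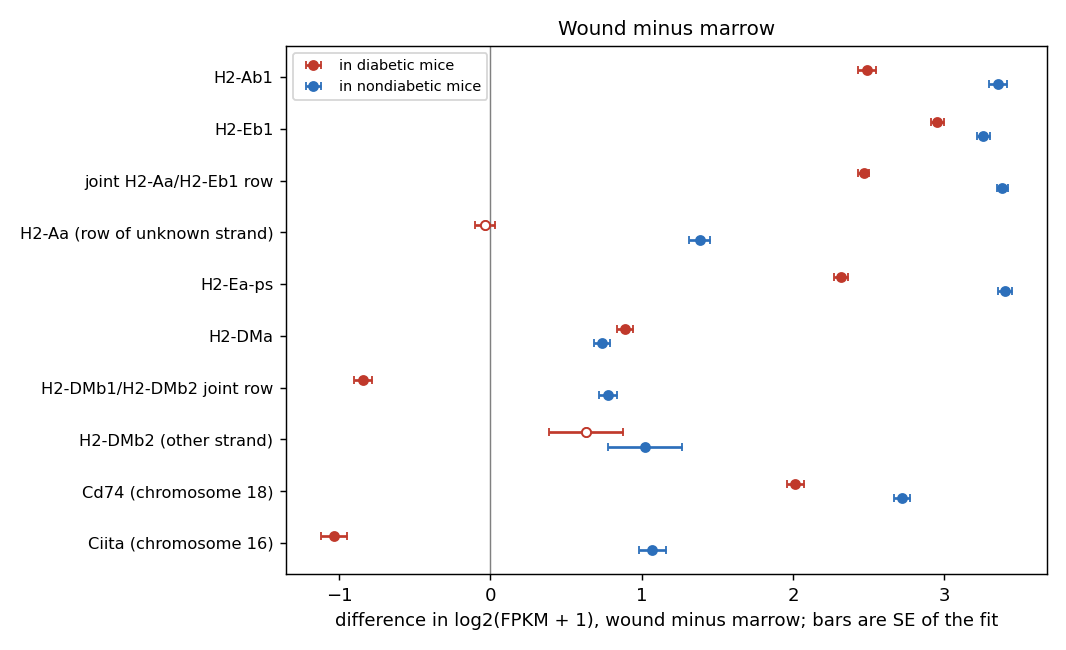
Difference in log2(FPKM + 1), wound minus marrow (x axis), of the 10 tested class II names (y axis) in diabetic and in nondiabetic mice; points are limma estimates, bars their SE, and open points did not reach an adjusted p under 0.05. All 10 points of the nondiabetic mice lie above 0, the H2-Aa row included although it passed the filter through that wound group alone, and Ciita and H2-DMb1/H2-DMb2 lie below 0 in diabetic mice at -1.04 and -0.84.

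The test of whether the diabetes difference itself differed between the tissues (wound difference minus marrow difference) passed for 7 of 9 names, all negative, beside 18.4% of all genes negative and 37.8% positive. That split over all genes depended on scaling, with 3777 negative and 3293 positive by median-ratio scaling and 3360 and 3838 by quantile normalization. The median was -0.87, against 0.19 over all genes. Ciita had the widest gap at -2.11 ± 0.13, followed by H2-DMb1/H2-DMb2 at -1.62 ± 0.09 (SE; limma, adjusted p = 1.73e-04 and 1.25e-04). The joint H2-Aa/H2-Eb1 row had -0.92 ± 0.05 (adjusted p = 1.47e-04). H2-Ab1 had -0.87 ± 0.08, Cd74 -0.70 ± 0.08 and H2-Eb1 -0.30 ± 0.06 (adjusted p = 6.09e-04, 0.00101 and 0.00888). For H2-Ea-ps the value was -1.09 ± 0.06 (SE; limma, adjusted p = 1.73e-04), and its size depended on the pseudocount. It kept its sign and call with a pseudocount of 0.1, and was 0.0099 (adjusted p = 0.888) with a pseudocount of 5. Without a pseudocount the group means rose 11.5-fold in wound and 38.3-fold in marrow, from 1.52 FPKM in nondiabetic marrow. H2-DMa and H2-DMb2 did not pass (adjusted p = 0.14 and 0.375).

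Ratios within a library do not depend on how libraries are scaled, and showed which members kept step with Cd74. H2-Eb1 stood at 67.5% and 67.8% of Cd74 in diabetic wound, against 70.4% and 69.7% in nondiabetic wound, so the pair fell by nearly the same factor there. H2-Ab1 stood at 19.9% and 21.3% of Cd74 in diabetic wound, against 34.0% and 35.1% in nondiabetic wound. In marrow H2-Eb1 was at 34.7% and 34.5% of Cd74 in diabetic cells, against 48.4% and 46.8% in nondiabetic cells, and H2-Ab1 at 14.1% and 13.9%, against 22.4% and 20.4%.
H2-DMa was at 9.22% and 9.61% of Cd74 in diabetic marrow, against 11.6% and 10.3% in nondiabetic marrow, and at 4.60% and 4.46% in diabetic wound, against 2.94% and 2.77% in nondiabetic wound. H2-DMb1/H2-DMb2 was at 60.8% and 60.7% of Cd74 in diabetic marrow, against 21.4% and 22.8% in nondiabetic marrow, and at 8.29% and 8.00% in diabetic wound, against 6.03% and 5.62% in nondiabetic wound. The DM beta share of Cd74 was thus higher in diabetic cells of both tissues, and the H2-DMa share in wound only. Ciita was at 3.30% and 3.18% in diabetic marrow, against 0.701% and 0.742% in nondiabetic marrow, and at 0.228% and 0.232% in diabetic wound, against 0.390% and 0.463% in nondiabetic wound, so its share was higher in diabetic marrow and lower in diabetic wound. No test was run on these ratios.

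**Figure D4:**
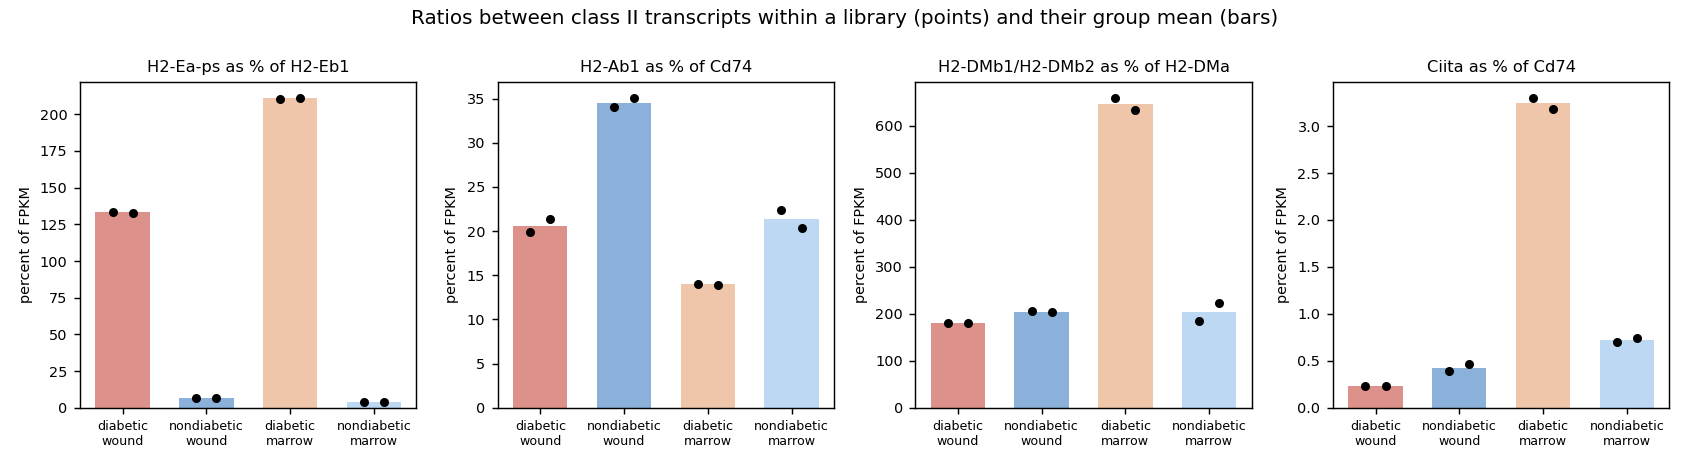
FPKM of 4 class II rows as a percent of another row in the same library (y axis, linear, from 0) in the 4 groups (x axis), where points are the 2 libraries of a group and bars their mean. H2-Ea-ps exceeds H2-Eb1 in the diabetic groups and stays under 7% of it in the nondiabetic groups, and the DM beta to alpha ratio is high only in diabetic marrow.

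The 3 other class II genes, H2-Oa and H2-Ob, whose product restrains H2-DM, and H2-Eb2, a relative of H2-Eb1, stood lower in diabetic wound. H2-Eb2 had 0.238 and 0.183 FPKM in diabetic wound, against 3.18 and 3.71 in nondiabetic wound, and passed the filter on low values through that last group alone, so its difference is given with no test. H2-Oa and H2-Ob differed by -0.87 and -0.72 (limma, adjusted p = 7.03e-04 and 4.83e-04). In marrow H2-Ob, a gene mainly of B cells, was higher at 5.62 and 5.27 FPKM in diabetic cells, against 3.25 and 3.38 in nondiabetic cells (adjusted p = 0.00142). H2-Oa did not pass there (-0.01, adjusted p = 0.977).

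The factors that act on class II promoters moved in both directions in wound. Of 13 listed 11 were tested. In wound 3 were higher in diabetic cells, beside 31% of all genes, and 4 lower, beside 20.7%, with a median of -0.01. The lower ones included Creb1 (-0.68 ± 0.05, SE; limma, adjusted p = 2.95e-04) and the NF-Y subunit gene Nfya (-0.35 ± 0.05, adjusted p = 0.00224). Irf1, which switches on a Ciita promoter, was higher (0.75 ± 0.04, adjusted p = 6.31e-05). In marrow 6 were lower, beside 31.7% of all genes (median -0.19, against -0.09 for all genes). Among them were Irf1 (-0.35), Irf8 (-0.37) and Nfya (-0.38). Rfx5, the DNA-binding RFX subunit, had a failed estimate in 1 library and was not tested.

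Interferon gamma is the classical inducer of Ciita, and its list shares Irf1 with the promoter factors. Ifng itself stood at 1.61 and 1.64 FPKM in diabetic wound, against 1.73 and 2.32 in nondiabetic wound. Of 14 tested genes of its pathway 10 were lower and 1 higher in diabetic wound, with a median of -0.26. Over all genes 20.7% were lower and 31% higher there. In diabetic marrow 8 were lower and 2 higher, with a median of -0.30, beside 31.7% and 13.1% of all genes. With median-ratio scaling the marrow calls over all genes were 2772 higher and 2510 lower, against 1767 and 4263 without it. In wound the receptor chain Ifngr1 (-0.99 ± 0.04) and the GTPase gene Irgm1 (-1.01 ± 0.05) were lower and Irf1 was the single higher gene (SE; limma, largest adjusted p = 8.33e-05). In marrow the joint rows Gbp3/Gbp7 and Gbp1/Gbp2 were lower, with differences of -1.65 and -0.81, and Socs3, a feedback inhibitor, was higher by 0.68 (adjusted p = 2.97e-05, 1.56e-04 and 3.59e-04). Ciita and H2-DMb1/H2-DMb2 were higher in diabetic marrow, and a link between this list and the class II differences was not tested.

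Among 6 tested genes of class II loading and turnover 4 were higher and 1 lower in diabetic wound (median 0.22). Over all genes 31% were higher and 20.7% lower there. The lower gene was Ifi30, a thiol reductase of the loading compartment (-0.80 ± 0.03), and Ctsl, a protease that trims Cd74, was higher (0.72 ± 0.04; SE; limma, adjusted p = 3.63e-05 and 1.12e-04). In marrow 2 were higher and 4 lower (median -0.25), beside 13.1% and 31.7% of all genes. Ctsl differed by 1.67 and Ifi30 by -1.15 (limma, adjusted p = 1.3e-05 and 1.48e-05). Of 6 costimulation genes, whose products give T cells the signal that goes with class II, 5 were lower in diabetic wound (median -0.57), beside 20.7% of all genes. They included Cd80 (-0.63 ± 0.04) and Cd274 (-0.76 ± 0.05), whose product restrains T cells (SE; limma, adjusted p = 1.19e-04 and 1.69e-04). In marrow 3 were higher and 2 lower (median 0.21), beside 13.1% and 31.7% of all genes.

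Markers of class II-bearing cells did not move one way. The counts of markers below stand beside 20.7% of all genes lower and 31% higher in diabetic wound, and 31.7% lower and 13.1% higher in diabetic marrow. Of 11 tested dendritic cell markers 7 were lower and 2 higher in diabetic wound (median -0.53), the lower ones including Ccr7 (-1.74 ± 0.04), Cd209a (-1.08 ± 0.07) and Flt3 (-0.96 ± 0.07; SE; limma, adjusted p = 1.3e-05, 1.67e-04 and 2.24e-04). Their summed level was 431 and 427 FPKM in diabetic wound, against 500 and 504 in nondiabetic wound, most of it Cd83. Cd83 itself hardly differed, at 347.5 and 347.2 FPKM in diabetic wound and 346.5 and 344.5 in nondiabetic wound. The gap between the sums lay mostly in Ccr7, at 29.3 and 28.9 FPKM in diabetic wound, against 97.6 and 101.8 in nondiabetic wound. In marrow 4 of 11 were lower, near the share of all genes, with sums of 22.3 and 24.6 FPKM in diabetic cells, against 29.9 and 30.5 in nondiabetic cells. Of the 2 Langerhans cell markers Cd207 was higher in diabetic wound (0.69, adjusted p = 8.24e-04) and Epcam lower (-0.59, adjusted p = 0.0011).
B cell markers moved in marrow. There 10 of 12 were higher and 1 lower in diabetic cells (median 0.80), with sums of 87.3 and 86.8 FPKM against 48.3 and 48.6 in nondiabetic cells. Cr2 rose by 1.56 ± 0.07 and Cd22 by 1.29 ± 0.04 (SE; limma, adjusted p = 7.57e-05 and 2.79e-05), and Vpreb3, a gene of immature B cells, was the lower marker (-0.24, adjusted p = 0.0254). In wound their sums were 5.21 and 3.82 FPKM in diabetic cells and 5.43 and 5.81 in nondiabetic cells, 1 of 12 (Cd22) was lower, and Vpreb3 was listed at 0 in 3 of the 4 wound libraries. H2-DMb1/H2-DMb2 and H2-Ob were highest in diabetic marrow, where the B cell sum was highest. Ciita reached 2.62 and 2.55 FPKM there and 2.09 and 2.68 FPKM in nondiabetic wound, where the B cell sum was low. H2-Ab1 and H2-Eb1 were at their lowest in diabetic marrow. Whether the B cell sum bears on these class II rows was not tested.

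Of 9 tested macrophage markers 5 were higher in diabetic wound (sums of 394 and 394 FPKM, against 318 and 326 in nondiabetic wound), and 7 were higher and 1 lower in diabetic marrow. Of 7 monocyte markers 4 were lower and 1 higher in each tissue, and the higher one in wound was F13a1 (1.46, limma, adjusted p = 1.34e-05). Of 6 tested neutrophil markers 5 were lower in diabetic wound and 2 in diabetic marrow. All 5 keratinocyte markers were higher in diabetic wound (sums of 656 and 640 FPKM, against 258 and 266 in nondiabetic wound), and 1 was lower in diabetic marrow. Fibroblast markers split as 1 higher and 1 lower of 4 in wound and 1 lower in marrow, endothelial markers as 2 higher of 4 in wound and 2 lower in marrow, and T cell markers as 1 lower of 5 in wound and 2 higher and 1 lower in marrow, where Lck passed the filter through diabetic marrow alone. The part of these cell markers in the class II differences was not tested.

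**Figure D5:**
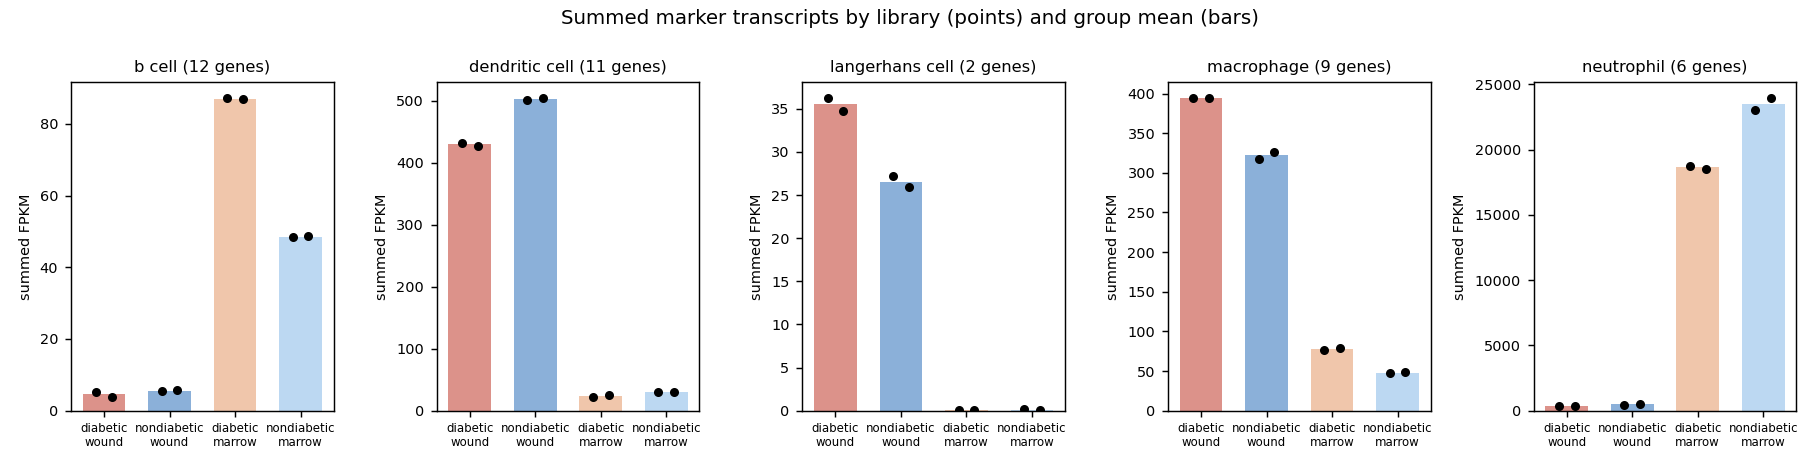
Summed FPKM of the tested markers of 5 cell types (y axis, linear, from 0, with its own scale in each panel) in the 4 groups (x axis), where points are the 2 libraries of a group and bars their mean. The B cell sum is highest in diabetic marrow at 87.3 and 86.8 FPKM. The dendritic cell sum is higher in nondiabetic wound than in diabetic wound, a gap that lies mostly in Ccr7.

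Between the tissues, 37.1% of all genes were higher in wound and 47.1% lower in diabetic mice. In nondiabetic mice these shares were 32.1% and 53.1%. The dendritic, Langerhans, macrophage, keratinocyte, fibroblast and endothelial lists ran mostly higher in wound. In diabetic mice 9 of 11, 2 of 2, 9 of 9, 5 of 5, 4 of 4 and 4 of 4 of their tested genes were higher there. The B cell, neutrophil and T cell lists ran lower, with 11 of 12, 6 of 6 and 5 of 5 lower in diabetic mice, and 5 of 7 monocyte markers were lower. All 6 loading genes were higher in wound in both genotypes, with medians of 2.74 in diabetic and 2.23 in nondiabetic mice. Ciita and H2-DMb1/H2-DMb2, lower in wound than in marrow in diabetic mice, had the same sign there as the B cell markers. In nondiabetic mice 11 of 12 B cell markers were also lower in wound, and Ciita and H2-DMb1/H2-DMb2 were higher in it. A link between the B cell markers and these rows was not tested.

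The genes whose profile over the 8 libraries lay nearest to H2-Ab1 were sought among 6759 genes by the root mean square difference of log2 values centred on each gene's mean. They were Mefv at 0.144, G0s2 at 0.156, Slamf7 at 0.191, Mx2 at 0.204 and the joint H2-Aa/H2-Eb1 row at 0.206. For Ciita, among 6760 genes, they were Sfpq at 0.119, Asprv1 at 0.198, Malat1 at 0.230, the joint row Defb40/Gm11051 at 0.250 and H2-DMb1/H2-DMb2 at 0.255. Each list of 5 thus held 1 other class II row. The measure describes likeness over 8 libraries in 4 groups and tests nothing.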

How the data were processed

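RNA of Gr-1+ cells was measured in 8 libraries, 2 pools of 5 mice in each of 4 groups. The authors deposited FPKM per locus. TopHat, Cufflinks and the mm9 build are named in the submitters' processing notes, with versions, settings and strand use not given in the sources used here. A library total is unknown, so depth was read from the steps between low FPKM values, of which 79.1% to 85.8% lay within 0.15 of a whole number of fragments.

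Names with a failed estimate in any library (521 of 15578) were left out, a name was represented by its locus with the highest mean FPKM, and FPKM of at least 1 in 2 libraries was required, leaving 13457. One linear model with a mean for each of 4 groups was fitted to log2(FPKM + 1) in limma 3.58.1 (R 4.3.3; trend, not robust), two-sided, with Benjamini-Hochberg adjustment over all genes and a threshold of 0.05. Differences on this scale understate the change of low rows such as Ciita. An exact permutation test of 2 pools against 2 cannot go below p = 0.333, so none was used. The fit was tested on simulated data.

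All members were named. From the pathway and cell marker lists at most 4 genes with the smallest p in a contrast were named, with any gene that a count of 5 or fewer singled out. The members and lists were chosen with earlier results of these data known. Alternatives were other pseudocounts, filters, scalings, locus rules and model settings, fits of only the groups compared, a block for pool number, and leaving out each library. Coordinates are mm9 as deposited, and promoter sequences are RefSeq's on GRCm38.p6. Tables were read with pandas 2.3.3 in Python 3.11.15.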

Additional observations from a re-analysis of the deposited data

Results flagged for a closer look

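The difference between diabetic and nondiabetic cells was not the same in wound and in marrow for 7 of 9 class II names, the H2-Aa row left out. The test was of the wound difference minus the marrow difference on the log2(FPKM + 1) scale (limma, adjusted p under 0.05). Ciita had -2.11, with a fall in diabetic wound and a rise in diabetic marrow, and H2-DMb1/H2-DMb2 had -1.62 with the same pair of directions. The H2-Aa row passed the filter on low values through nondiabetic wound alone and so had to be high there. Its value of -1.42 is given with no weight on its test. The joint row H2-Aa/H2-Eb1/RP23-123G8.12 had -0.92, H2-Ab1 -0.87, Cd74 -0.70 and H2-Eb1 -0.30, where the diabetic value lay further below the nondiabetic one in wound than in marrow. H2-Ea-ps had -1.09, a smaller rise in wound than in marrow. The size of this value depended on the pseudocount, while the folds without a pseudocount were 11.5 in wound and 38.3 in marrow. Of all 13457 genes 18.4% were called negative and 37.8% positive by this test, a split that turned to 3777 negative and 3293 positive with median-ratio scaling.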

How the results depend on the processing

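Of the member differences recomputed under the other settings, 1096 kept their direction and side of the threshold, 12 gained a call, 12 lost one and 10 turned sign. Of the gained calls 10 were H2-DMb2 in wound against marrow of diabetic mice and 2 were H2-DMa in wound. The lost ones were 5 for H2-DMa, 4 for H2-DMb2 and 2 for the joint H2-Aa/H2-Eb1 row in marrow, and 1 for H2-DMb1/H2-DMb2 in wound. The marrow count of lower members was 2 with quantile normalization and 2 with median-ratio scaling, and the count of members lower in wound than in marrow of diabetic mice was 1 when FPKM of at least 5 was required (8895 genes tested, which leaves Ciita out). Apart from H2-Ea-ps, the signs that turned were of differences that had not passed. For Cd74 in marrow the values were 0.0179 (quantile) and 0.0786 (median-ratio), for the H2-Aa row in marrow 0.0050 and 0.0002 with those scalings and 0.0337 and 0.0376 without diabetic marrow pool 2 or nondiabetic marrow pool 1 (range over pools left out -0.0452 to 0.0376), and for its tissue difference in diabetic mice 0.0000 without diabetic marrow pool 1 (range -0.0751 to 0.0000). The difference between tissues turned for H2-DMa to -0.0419 (quantile) and -0.0897 (median-ratio) and for H2-Ea-ps to 0.0099 with a pseudocount of 5; the cause was not tested. Median-ratio scaling moved the median of all genes in wound against marrow of nondiabetic mice to 0.07, against -0.38 without it.

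The labels do not say whether marrow and wound pools of the same number share mice. The pool differences of the groups correlated between -0.18 and 0.22 across genes, which cannot settle this. With a replicate block the members called in wound were 1 higher and 7 lower, in marrow 4 and 4, as without the block. Unlike the counts above, these include the H2-Aa row, among the lower in wound, which the filter had fixed as high in nondiabetic wound. With crossed pairings, chosen after seeing the data, the counts with that row were also 1 and 7 in wound and 4 and 4 in marrow. Each group rests on 2 pools, depth is known only relatively, and H2-DMb2 has the widest error of the members (SE 0.25).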
